A study of Mus musculus with 15 samples.

Results

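The sites described here are genomic regions where PU.1 was detected in both control libraries of mouse macrophages and in exactly 1 of the 2 libraries made after a hairpin against PU.1 was induced. They number 6713 of the 21680 control regions (31.0%, exact 95% interval 30.3 to 31.6), and of 53107 regions in all. A control region is a stretch of joined peaks, sharing at least 1 bp, that holds a peak of both control libraries. Of the members, 5964 had their shPU.1 peak in replicate 2 and 749 had it in replicate 1. These are called replicate 2-only and replicate 1-only regions below. The members were chosen by the presence and absence of peaks in the 4 in vivo lists, so those counts are a description and carry no test.

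Macrophage identity depends on PU.1, a DNA-binding protein of the ETS family encoded by Spi1. It recognises purine-rich DNA with a GGAA core and binds many macrophage enhancers, where it can displace nucleosomes and open the DNA to other factors.

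Cells of the shPU.1 group and of the control group were C57BL/6 bone marrow-derived macrophages on day 7 of differentiation. Both groups carried a retroviral vector with puromycin resistance and a doxycycline-inducible hairpin, against PU.1 in the shPU.1 group (n = 2 libraries) and against Renilla luciferase in the control group (n = 2 libraries), which the titles call empty. Both were selected with 3 µg/ml puromycin from day 3 and given 0.5 µg/ml doxycycline for 48 hours from day 5, so the controls share the infection and the drugs. Chromatin was crosslinked with formaldehyde and precipitated with a rabbit antibody raised against the N-terminal part of PU.1. A separate list describes PU.1 on nucleosomes assembled in vitro from naked macrophage DNA and recombinant histones, incubated with macrophage nuclear extract. It was called on the library made with IgG-depleted extract, with the library made with PU.1-depleted extract as control, and has no replicate. The labels do not say whether replicates came from separate mice or cultures.

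The lists of shPU.1 replicates 1 and 2 held 15122 and 27733 peaks and those of control replicates 1 and 2 held 30026 and 36759. Median peak width was 448 and 1076 bp in the shPU.1 lists and 435 and 892 bp in the control lists, so both number 2 lists had the wider peaks. The depth of the libraries is unknown, and these files do not measure how much PU.1 was left in each culture. A loss of PU.1 in 1 culture and a peak just under the caller's limit in 1 library cannot be told apart. No p-value is given, since 0.33 is the smallest that exact permutation of 2 against 2 libraries allows (two-sided). Intervals on shares and odds ratios cover the counting of regions within these libraries only. Regions are not replicates of a condition.

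The subsets were of very unequal size. Seen from the list of shPU.1 replicate 2, 40.8% of the 14630 control regions with a peak there (exact 95% interval 40.0 to 41.6) had none in replicate 1. Seen from the list of shPU.1 replicate 1, 7.96% of 9415 (7.42 to 8.52) had none in replicate 2. Over all control regions the replicate 2-only share was 27.5% and the replicate 1-only share 3.45%, a log2 ratio of the counts of 2.99. With every in vivo list limited to its 15122 highest-scoring peaks the log2 ratio was 1.64 (1738 against 556 regions). Of the 749 replicate 1-only members, 259 kept all 3 peaks there, so the 556 include regions that were not members. With peaks cut down to the central 200 bp, which also made the classes anew, the log2 ratio was 1.56 (4420 against 1502). With scores of at least 100 the log2 ratio was 5.09 (4016 against 118). That limit did not cut the subsets alike. As deposited, 92.4% of replicate 1-only regions scored below 100 in shPU.1 replicate 1. Of replicate 2-only regions, 47.5% scored below 100 in shPU.1 replicate 2.

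The opposite comparison had the same lean. Of the 10122 regions with a peak in both shPU.1 libraries, 1185 (11.7%, 11.1 to 12.3) had a peak in exactly 1 control library. Of these, 1048 were in control replicate 2 only and 137 in control replicate 1 only. The replicate 2-only to replicate 1-only ratio was thus 7.96 for the shPU.1 libraries and 7.65 for the control libraries.

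In control rank, members lay between the regions of both and of neither shPU.1 library. A region was ranked by averaging its percentile by score in control replicate 1 and in control replicate 2 (100 being the highest). The rank had a median of 56.9 in replicate 2-only regions (quartiles 41.4 and 73.0) and 54.3 in replicate 1-only regions (37.5 and 71.0). Regions found in both shPU.1 libraries had a median of 79.2 and those found in neither 42.9, so both subsets lay between these classes. The fifth decile of all control regions ended at a rank of 61.5, so both member medians lay below the middle of the control regions. The rank is a description, because the same lists chose the members.

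By decile of rank, replicate 2-only regions made up 23.7% of control regions in the lowest decile, 36.7% in the fourth and 11.1% in the highest. Replicate 1-only regions made up 4.15%, 3.74% and 1.11% in the same order. The first share therefore went up and then down along the control rank, and the second stayed below 5% and was lowest in the top decile. In the fourth decile, replicate 2-only regions were about as many as regions found in neither shPU.1 library, with 795 and 774.

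**Figure D1:**
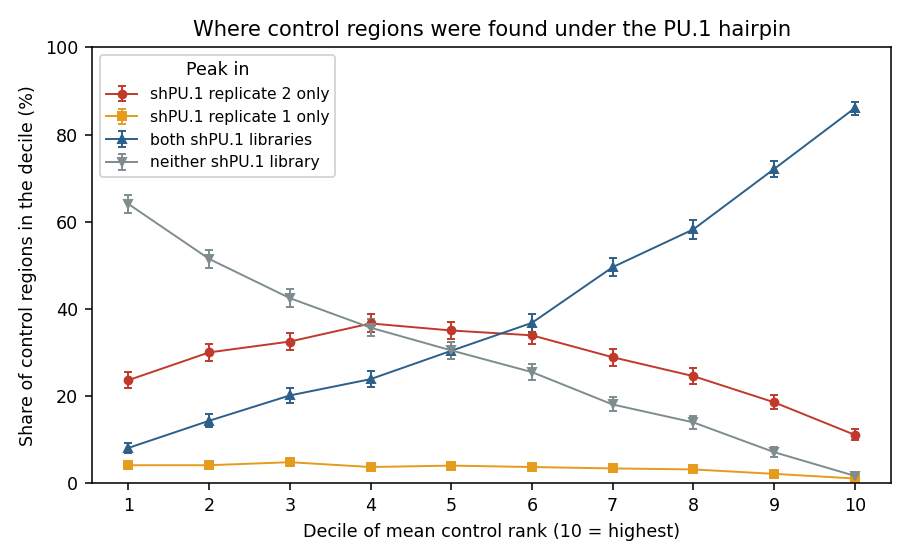
Share of control regions (y axis, %) with a peak in shPU.1 replicate 2 only, in shPU.1 replicate 1 only, in both or in neither shPU.1 library, by decile of mean control rank (x axis, 2168 regions each). Bars are exact 95% intervals. The replicate 2-only share was highest in the fourth decile (36.7%), while the share in both libraries reached 86.1% in the highest decile.

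The 2 control lists ranked the subsets differently. In replicate 2-only regions the median percentile was 54.4 in control replicate 1 and 64.2 in control replicate 2, and 61.5% of regions (exact 95% interval 60.2 to 62.7) stood higher in control replicate 2. In replicate 1-only regions the medians were 56.2 and 56.3, and 46.5% (42.8 to 50.1) stood higher in control replicate 2. This went with presence in the list of shPU.1 replicate 2 rather than with detection in 1 library: the share standing higher in control replicate 2 was 65.4% in regions of both shPU.1 libraries and 47.3% in regions of neither. Replicate 2-only regions thus stood nearer to regions of both shPU.1 libraries, and replicate 1-only regions close to regions of neither. An even split is not the share over all control regions, so no lean towards the control library of the same number is read from these shares. The labels do not say what libraries of 1 number share, and its part in the membership was not tested.

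**Figure D2:**
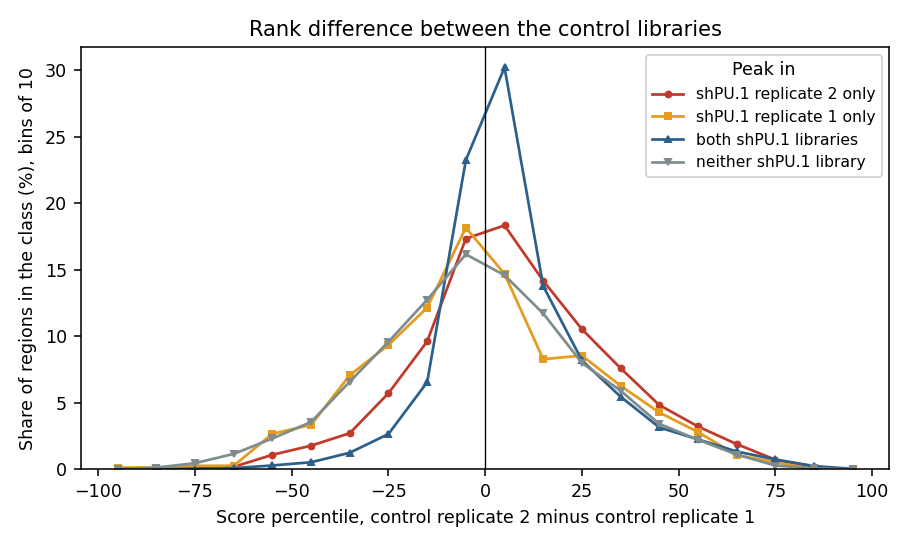
Score percentile in control replicate 2 minus that in control replicate 1 (x axis, bins of 10 percentile points) against the share of regions of each class (y axis, %). The replicate 2-only curve lies to the right of 0 (median 5.67) and the replicate 1-only curve slightly to the left (median -2.06).

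The shPU.1 peaks of members scored lower than those of regions found in both shPU.1 libraries. In replicate 2-only regions the score in shPU.1 replicate 2 had a median of 104 (quartiles 72.7 and 160.2), against 296 in regions found in both shPU.1 libraries. In replicate 1-only regions the score in shPU.1 replicate 1 had a median of 64.0 (55.6 and 78.1), against 101 in regions found in both. As percentiles of those lists the member medians were 53.7 and 31.9, against 82.4 and 67.9. In the whole lists, replicate 2-only regions thus stood near the middle and replicate 1-only regions in the lower part, although the control ranks of the subsets were close. Those lists also hold peaks outside control regions. Among control regions with a peak in the same list, both medians were low. The replicate 2-only median fell in the third decile of score (85.2 to 108) and the replicate 1-only median in the second (56.4 to 64.1).

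Many members sat close to the lowest score that was listed, which was 50 for shPU.1 replicate 2 and 50.01 for replicate 1. A score below 60 was found in 12.3% of replicate 2-only regions (11.5 to 13.1) and 2.24% of the regions of both libraries in shPU.1 replicate 2. In shPU.1 replicate 1 it was found in 39.4% of replicate 1-only regions (35.9 to 43.0) and 12.6% of the regions of both libraries. The lowest scores just inside the limit were 50.02 for replicate 2-only and 50.01 for replicate 1-only regions. Regions just outside it have no listed score in the missing library.

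**Figure D3:**
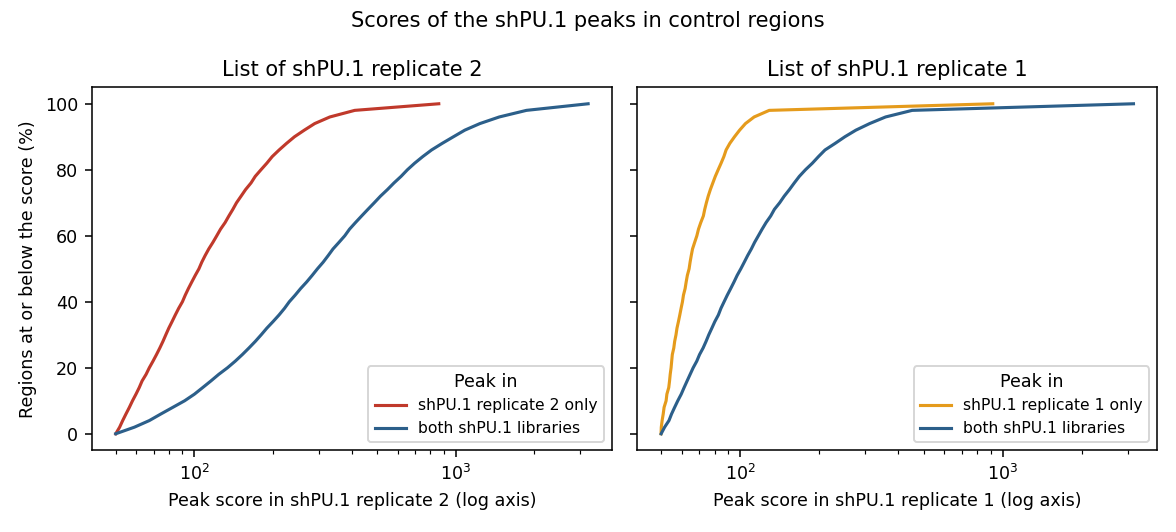
Cumulative share of control regions (y axis, %) at or below a peak score (x axis, log scale) in the list of shPU.1 replicate 2 (left) and of shPU.1 replicate 1 (right). In each panel the members, found in that library only, lie left of the regions found in both shPU.1 libraries, with medians of 104 and 64.0 against 296 and 101.

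Absence from the second shPU.1 list followed the score in the first. Among control regions with a peak in shPU.1 replicate 2, 77.4% lacked one in replicate 1 in the lowest decile of score (50 to 66.3), 49.4% in the fifth and 0.478% in the highest (7 of 1463). Among those with a peak in shPU.1 replicate 1, 22.9% lacked one in replicate 2 in the lowest decile, 7.64% in the fifth and 0.425% in the highest (4 of 941). The highest score deciles thus held 7 and 4 members.

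Near misses were rare. The rule needs a shared base, so a peak of the missing library just beside a region leaves it a member. Only 19 of the 5964 replicate 2-only regions (0.319%) had a peak of shPU.1 replicate 1 within 200 bp, and 8 of the 749 replicate 1-only regions (1.07%) had a peak of shPU.1 replicate 2 that close. Regions found in neither library had such a peak in 0.222% (replicate 1) and 1.41% (replicate 2) of cases. The median gap to the nearest peak of the missing library was 23.4 kb for replicate 2-only and 10.9 kb for replicate 1-only regions. Regions of neither library had median gaps of 22.9 kb to the first and 12.4 kb to the second list, so the gaps of members were near those of other regions without a peak.

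Width depended on which library held the peak. Replicate 2-only regions had a median width of 1264.5 bp and replicate 1-only regions 1034 bp. The stretch covered by control peaks alone was 982 bp in replicate 2-only and 1008 bp in replicate 1-only regions (quartiles 773 to 1300 and 778 to 1341), so that the difference in whole width was not present in the control peaks. The shPU.1 peaks themselves had median widths of 1157 bp in shPU.1 replicate 2 and 423 bp in shPU.1 replicate 1. By comparison, control peaks spanned 1114.5 bp in regions of both shPU.1 libraries and 973 bp in regions of neither.

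Members were mostly simple regions. The control peaks overlapped each other directly in 5943 of 5964 replicate 2-only regions and in all 749 replicate 1-only regions. Centres of the highest peaks lay a median of 115.5 bp (control replicate 1) and 117.5 bp (control replicate 2) from that of shPU.1 replicate 2 in the first subset. The distances from that of shPU.1 replicate 1 were 74.5 and 114 bp in the second. More than 1 shPU.1 peak was found in 0.771% of replicate 2-only and 1.47% of replicate 1-only regions. More than 1 peak of control replicate 1 was found in 7.16% and 7.08% of them. That share was 12.1% in regions of both shPU.1 libraries and 4.35% in regions of neither.

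The in vitro list, which the rule did not use, separated the subsets. An in vitro peak, with at least 1 bp shared, lay in 1607 of 5964 replicate 2-only regions (26.9%, exact 95% interval 25.8 to 28.1) and 120 of 749 replicate 1-only regions (16.0%, 13.5 to 18.8). Over all control regions the share was 27.6%, over regions of both shPU.1 libraries 39.5%, and over regions of neither 13.3%. After the in vitro list was moved by 50 kb, as a measure of overlap with their surroundings, the shares fell to 5.70% in replicate 2-only and 5.07% in replicate 1-only regions. The replicate 2-only share was close to that of all control regions, and the replicate 1-only share was nearer to that of the regions found in neither library.

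Within deciles of control rank, the odds of an in vitro peak in replicate 2-only over replicate 1-only regions were 1.91 (Mantel-Haenszel odds ratio, 95% interval 1.56 to 2.35). Using the control peaks alone for the overlap gave 1.89 (1.54 to 2.32). That takes shPU.1 peak width out of the overlap but not out of the classes, which the same shPU.1 peaks still set. Stratifying by rank and by control width together gave 1.92. The size of the contrast depended on how peaks were drawn: trimmed to their central 200 bp it was 1.20 (1.04 to 1.38), with shares of 25.0% and 22.7%. Trimming also made the classes anew, with 4420 replicate 2-only and 1502 replicate 1-only regions, so these values do not describe the members alone. With scores of at least 100 in every list, where 118 regions were replicate 1-only, the odds ratio was 1.12 (0.701 to 1.79). Its interval included 1.

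Against the other control regions, members stood between the classes. Their odds of an in vitro peak within rank deciles were 2.33 times those of regions found in neither shPU.1 library (2.12 to 2.56), and 0.591 times those of regions found in both (0.547 to 0.638). The value of 2.33 was 1.31 (1.23 to 1.39) with control replicate 1 left out and 3.37 with control replicate 2 left out, so its size rested on which control library defined the regions. For the subsets singly, replicate 2-only regions gave 2.49 (2.26 to 2.74) over neither and 0.632 (0.584 to 0.683) over both. The value of 2.49 was 1.37 (1.29 to 1.46) without control replicate 1 and 3.62 without control replicate 2. Replicate 1-only regions gave 1.33 (1.08 to 1.65) over neither and 0.348 (0.284 to 0.428) over both. The value of 1.33 was 0.908 (0.781 to 1.05) with control replicate 1 left out, 1.84 with control replicate 2 left out and 2.80 with scores of at least 100. The value of 0.348 was 0.548 without control replicate 1, 0.536 with trimmed peaks and 0.529 with scores of at least 100.

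Along the control rank, the in vitro share of replicate 2-only regions was 21.4% in the lowest decile, 31.6% in the seventh and 20.7% in the highest. In regions of both shPU.1 libraries it was 28.4%, 36.6% and 47.9% in the same deciles. In replicate 1-only regions it lay between 8.51% and 23.8% over the 10 deciles, each of which held between 24 and 105 regions. The gap between replicate 2-only regions and those of both libraries was therefore widest in the highest decile, at 20.7% (50 of 241, 15.8 to 26.4) against 47.9% (45.6 to 50.2).

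**Figure D4:**
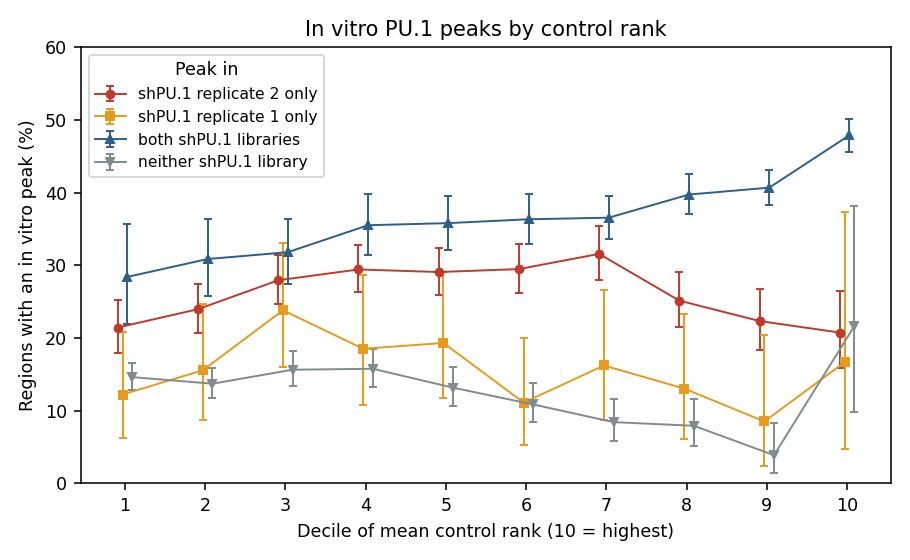
Share of regions with an in vitro PU.1 peak (y axis, %) by decile of mean control rank (x axis), for regions with a peak in shPU.1 replicate 2 only, in shPU.1 replicate 1 only, in both and in neither. Bars are exact 95% intervals, and points are slightly offset. In the highest decile the replicate 2-only share was 20.7% and that of regions in both libraries 47.9%.

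At like score in the shPU.1 list, the subsets parted. Within deciles of the score in shPU.1 replicate 2, replicate 2-only regions had 0.995 times the odds of an in vitro peak of regions found in both libraries (0.912 to 1.09). Within deciles of the score in shPU.1 replicate 1, replicate 1-only regions had 0.393 times the odds (0.320 to 0.483), and 0.594 times with scores of at least 100 in every list. For example, in the fourth decile by score of shPU.1 replicate 2 an in vitro peak lay in 28.0% of replicate 2-only regions and 29.0% of regions of both. In the fourth decile by score of shPU.1 replicate 1 it lay in 17.7% of replicate 1-only regions and 30.9% of regions of both. The deciles were not all alike: in the seventh decile by score of shPU.1 replicate 2, an in vitro peak lay in 44.6% of replicate 2-only regions (39.6 to 49.7) and 35.0% of regions of both (32.1 to 37.9). Over the deciles together, the odds for replicate 2-only regions did not differ from those of regions of both libraries beyond the interval given, and those for replicate 1-only regions were lower.

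**Figure D5:**
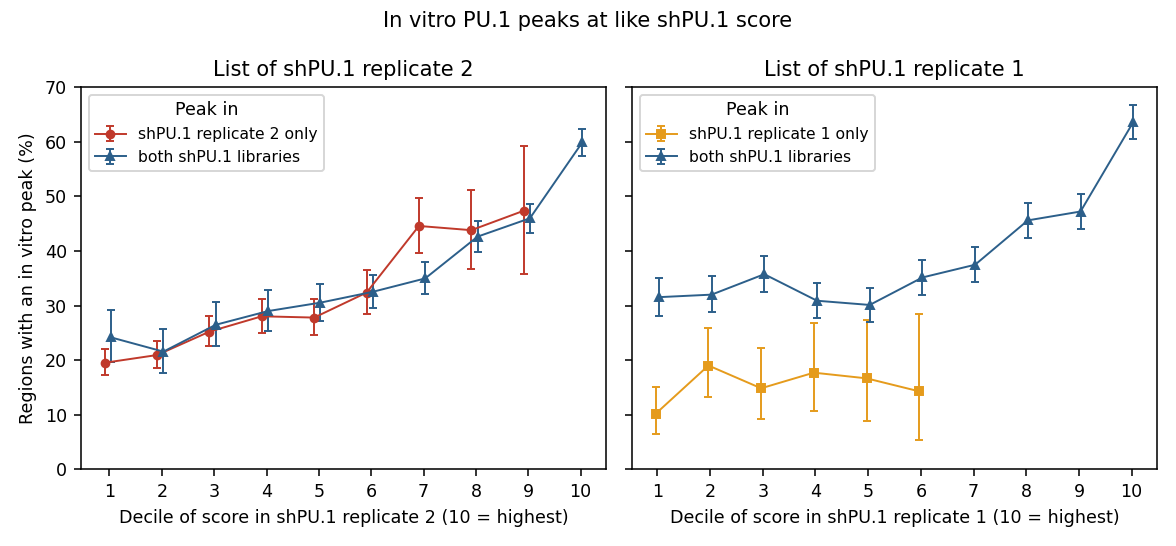
Share of control regions with an in vitro peak (y axis, %) by decile of the score in shPU.1 replicate 2 (left) or shPU.1 replicate 1 (right), for regions found in that library only and in both. Bars are exact 95% intervals, and points with under 20 regions are left out. On the left, members and regions of both libraries lie close in the fourth decile (28.0% and 29.0%) and apart in the seventh (44.6% and 35.0%), and on the right members lie lower in the fourth decile (17.7% and 30.9%).

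The control-side counterpart had the same direction. Among regions of both shPU.1 libraries and 1 control library, an in vitro peak lay in 38.8% (35.9 to 41.9) of those in control replicate 2 only and 27.0% (19.8 to 35.3) of those in control replicate 1 only. These control-side shares were not matched for rank. The median percentile in the control list that held the peak was 51.0 for control replicate 2 only and 33.2 for control replicate 1 only. In both groups, then, regions held by the number 2 library alone had the higher in vitro share. The wider peaks and longer lists of the number 2 libraries go with this. For the shPU.1 libraries, the odds ratio of replicate 2-only over replicate 1-only regions was 2.23 (1.74 to 2.85) with lists of equal length. With trimmed peaks it was 1.20, and both settings made the classes anew. The control-side counterpart was not redone in these settings, and the part of peak width and list length in the difference was not tested.

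Where an in vitro peak was present, its strength differed little. By the authors' deposited table, the median percentile of the highest overlapping in vitro peak was 63.8 in replicate 2-only regions (quartiles 35.3 and 84.5) and 68.4 in replicate 1-only regions (37.7 and 87.7). It was 70.3 in regions of both shPU.1 libraries and 65.5 in regions of neither. The subsets thus differed in how often an in vitro peak lay there, while the quartiles of its score overlapped widely.

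Individual members show the range. Coordinates are in mouse build mm9, counted from 1. No mm9 annotation was used here, so the regions carry no gene names. The replicate 2-only region with the highest control rank was chr17:36052730-36055490. It scored 137 in shPU.1 replicate 2, against 813 and 1311 in control replicates 1 and 2, and had no in vitro peak. Its percentile was 63.5 in the shPU.1 list, against 99.2 and 99.0 in the control lists. This was the lowest shPU.1 percentile of the 5 highest-ranked replicate 2-only regions.

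Next in rank was chr1:34495372-34497324, with 309 in shPU.1 replicate 2, against 875 and 1218 in the controls. The third, chr5:122291467-122293884, scored 416, against 682 and 1502. The fourth, chr11:74642954-74647103, scored 229, against 787 and 1187. At 4150 bp it was the widest of the 5. The fifth, chr11:94425237-94426641, scored 334, against 920.4 and 1096. The second and the fourth held in vitro peaks, with scores of 79.0 and 53.8 in the authors' deposited table, at percentiles of 34.2 and 6.65 of that list.

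The replicate 1-only region with the highest control rank was chr7:125634159-125636191. It scored 93.3 in shPU.1 replicate 1, against 858 and 860 in control replicates 1 and 2. The third and the fifth in rank were chr10:90643834-90645144, with 92.4 against 614 and 854, and chr5:147072376-147073092, with 173 against 660.2 and 673. Of these 3 regions, the one on chromosome 5 held an in vitro peak, with a score of 154.

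The second and the fourth in rank stood apart from the other replicate 1-only regions. At chr2:98502198-98503344 the score was 916 in shPU.1 replicate 1, against 1359 and 753 in the controls. At chr9:35112605-35113369 it was 890.0, against 1459 and 655. Both stood at percentile 99.8 in shPU.1 replicate 1, against 99.8 and 99.9 in control replicate 1 and 95.9 and 94.4 in control replicate 2. Neither had a peak in shPU.1 replicate 2. In the authors' deposited table both held an in vitro peak with a score of 3100, at percentile 99.9 of that list. These are also the replicate 1-only regions with the highest shPU.1 scores, and regions prone to mapping artefacts were not removed.

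By score in the shPU.1 list, the third replicate 1-only region was chr2:129235901-129236862. It scored 491 there, at percentile 99.0, against 120.2 and 75.5 in control replicates 1 and 2, at percentiles 62.6 and 26.3. The replicate 2-only regions with the highest shPU.1 scores were chr3:100240312-100241925 with 862, against 136 and 278 in the controls, and chr17:10562664-10564658 with 852, against 250.4 and 606. The third was chr7:20162428-20164353 with 798, against 450 and 985. Scores of different lists are not on 1 scale, but the region on chromosome 3 stood at percentile 96.1 in shPU.1 replicate 2 and at 68.1 and 78.8 in the control lists. The control rank was 44.4 for the region on chromosome 2 and 73.4 for that on chromosome 3. For those on chromosomes 17 and 7 it was 90.2 and 96.8. Of these regions, only the one on chromosome 2 thus joined a high shPU.1 score to a control rank below the median of its subset.

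At the other end, the lowest-ranked replicate 2-only regions were chr6:51499838-51500787 and chr6:17760589-17761488. They scored 86.9 and 54.4 in shPU.1 replicate 2, against 50.2 and 50.6 in control replicate 1 and 50.2 and 52.0 in control replicate 2. The lowest-ranked replicate 1-only regions were chr19:53609536-53610390 and chr6:89090415-89090934, with 59.7 and 51.3 in shPU.1 replicate 1, against 53.4 and 52.8 in control replicate 1 and 53.6 and 57.2 in control replicate 2. All of these peaks other than that of the first region in shPU.1 replicate 2 lay within 10 score units of the lowest listed score. The exception, with a score of 86.9, stood at percentile 45.7 of its list.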

How the data were processed

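PU.1 peak lists of 4 in vivo libraries and 1 in vitro list were used. The submitters' processing notes name Bowtie 0.12.7, MACS 1.4 and build mm9, and their parameters were not given in the sources used. Per the names of the deposited files, each in vivo library had its own list, with an input as control. The deposited score of each peak is, by convention of that MACS generation, 10 times the negative log10 of its p-value. It grows with depth, so it served only to rank peaks within a list. Read counts are not in these lists and depth is unknown. Micrococcal nuclease samples (9) were not analysed here.

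Peaks were joined and classed with Python 3.11.15 (pandas 2.3.3, SciPy 1.17.1), checked against bedtools 2.31.1 and on simulated data. A region with more than 1 peak of a list took the highest score. Shares carry exact Clopper-Pearson 95% intervals. Mantel-Haenszel odds ratios used 10 rank strata, with Robins-Breslow-Greenland intervals. Both cover the counting of regions only. Named regions were, in each subset, the 5 highest and 2 lowest by control rank and the 3 with the highest shPU.1 score. Members and comparisons were chosen with earlier results of these data known. The odds ratios of single subsets against other classes, those at like shPU.1 score and the control-side counterpart were added after seeing values. The alternatives tried were peaks trimmed to 200 bp, a minimum score of 100, lists of equal length, a stricter overlap for joining peaks, each control library left out, autosomes only, the replicate number as a block, and other overlaps and strata. No mm9 sequence or annotation was used here, so no sequences or gene names are given.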

Additional observations from a re-analysis of the deposited data

How the results depend on the processing

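Depth is unknown and could not be corrected for. List length was made equal in 1 alternative, which does not make depth equal. Among alternatives to the results named in the comparisons, 72 kept their value or call, 26 moved outside the counting interval and 4 ended a call. Members made up 36.4% of control regions when scores under 100 were dropped, 32.7% with trimmed peaks and 22.2% with lists of equal length, and 26.4% to 29.4% with 1 control library left out. The log2 ratio of replicate 2-only to replicate 1-only regions was 5.09, 1.56 and 1.64 in the same order of settings. Each of these settings made the classes anew, so regions that were not members as deposited could enter. With the replicate number as a replicate block, each control library was taken alone with the shPU.1 library of its number. The log2 ratio was then 3.39 (9432 and 902 regions). What samples of 1 number share is not stated in the labels.

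The in vitro share of replicate 2-only regions was 21.1% without scores under 100, 25.0% with trimmed peaks, 30.6% with lists of equal length, 17.5% with in vitro scores of at least 100 and 5.70% after a shift of the in vitro list by 50 kb, and 25.7% to 28.7% without 1 control library. For replicate 1-only regions it was 22.7% with trimmed peaks, 11.6% with in vitro scores of at least 100 and 5.07% with the shift, and 14.5% to 20.5% without 1 control library. The median control rank of replicate 2-only regions was 49.0 with lists of equal length and 51.8 to 54.9 without 1 control library. For replicate 1-only regions it was 70.1 with trimmed peaks, 56.1 at a score of at least 100 and 47.3 to 52.0 without 1 control library.

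The odds ratio of an in vitro peak in replicate 2-only over replicate 1-only regions ran from 1.12 to 2.23 over 15 alternatives. Its interval included 1 without scores under 100 (1.12) and with the shift (1.13). With the shift, members gave 0.965 over regions of both shPU.1 libraries and 1.16 over regions of neither, both with intervals including 1. By construction the shift removes the true positions. Replicate 1-only over regions of neither library reversed to 0.908 without control replicate 1 and was 1.84 without control replicate 2, and the cause was not tested. At like shPU.1 score, replicate 2-only over both libraries ran from 0.893 to 1.05 over 12 alternatives. Replicate 1-only over both libraries was 0.839 (0.591 to 1.19) with the shift and ran from 0.354 to 0.594 in the other alternatives. Requiring the control peaks to overlap each other directly, chosen after seeing the data, changed no call. Leaving out a shPU.1 library gives no value, because the rule needs both.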

Other observations

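Members were spread over the chromosomes much like other control regions. On autosomes and chromosome X, replicate 2-only regions made up between 25.3% (chromosome 10) and 31.7% (chromosome 17) of control regions, and replicate 1-only regions between 2.26% (chromosome 19) and 4.56% (chromosome 2). None of the 7 control regions on chromosome Y was a member.

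Another control region lay within 10 kb of 41.5% of replicate 2-only regions (exact 95% interval 40.2 to 42.7) and of 49.1% of replicate 1-only regions (45.5 to 52.8). The share was 45.5% over all control regions. For replicate 2-only regions with such a neighbour, the nearest one was itself replicate 2-only in 26.7% of cases, in both shPU.1 libraries in 40.8% and in neither in 28.6%. Over all control regions with such a neighbour these shares were 25.0%, 41.5% and 29.7%.

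In the lists of equal length, all 3 peaks of a member were retained for 1738 replicate 2-only regions (29.1%) and 259 replicate 1-only regions (34.6%). A control peak had dropped out in 3536 and 490 of them. The lowest scores retained were 50.01 and 86.5 in shPU.1 replicates 1 and 2 and 94.1 and 149 in control replicates 1 and 2.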
